A study of Mus musculus with 8 samples.

Results

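Pax6, Rax, Lhx2 and Nr2e1 encode transcription factors of the dividing progenitor cells of the retina, and they were chosen by gene symbol. They are 4 of the 16096 genes in the deposited table, each symbol matched 1 row, and all 4 passed the filter on low counts. Of the 4, Nr2e1 fell in peripheral retina labelled Ezh2fl/null, to 0.754 times its level in Ezh2fl/+ retina, and Pax6, Rax and Lhx2 stood at 0.935, 0.893 and 0.957 times that level without passing the test.

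The libraries were 4 labelled Pax6alpha-Cre:Ezh2fl/null and 4 labelled Pax6alpha-Cre:Ezh2fl/+, from peripheral retina of C57BL/6 embryos at embryonic day 16.5. The Ezh2fl/null embryos carried a floxed and a null allele of Ezh2, and the Ezh2fl/+ embryos a floxed and a wild-type allele. Both groups carried the Cre transgene, driven by a regulatory element of Pax6 that is active in the peripheral retina, so cells without active Cre kept a working floxed allele in either group. Ezh2 encodes the enzyme of Polycomb repressive complex 2 that methylates histone H3 at developmental genes. Nothing in the labels ties a library to an embryo, pool or litter, so each p-value reflects only how these samples vary, which may be technical. In bulk tissue, fewer cells of a type and less RNA per cell cannot be told apart.

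Library totals ran from 14764220 to 18391647 counts in the group labelled Ezh2fl/null and from 13994825 to 17346834 in Ezh2fl/+. Ezh2 itself stood at 220 to 276 CPM (counts scaled to a common library size after TMM normalization) in libraries labelled Ezh2fl/null and at 197 to 235 CPM in Ezh2fl/+. A count over the whole gene does not check the loss of single exons, so directions here go by the labels. By Xist and Y-linked genes, replicates 2 and 3 labelled Ezh2fl/null were female and the other 6 libraries male. Replicate 2 labelled Ezh2fl/null and Ezh2fl/+ replicate 1 held lens RNA: the summed level of the 9 lens genes in the table was 9.61 and 15.6 CPM there, and 1.12 to 1.61 CPM in the other 6.

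Retinal progenitors divide and release neurons in a fixed sequence, and a small set of transcription factors keeps them competent. Pax6 has a paired domain and a homeodomain, is needed for progenitors to make the full range of retinal cells, and stays on in amacrine, ganglion and horizontal cells. Rax, a paired-like homeodomain factor, acts from the eye field onward and is used again in photoreceptors and Müller glia. Lhx2, a LIM homeodomain factor, patterns the optic vesicle and later keeps progenitors and glia. Nr2e1, also called Tlx, is an orphan nuclear receptor that mostly represses its targets and keeps retinal and neural progenitors dividing.

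Pax6 (ENSMUSG00000027168) lies on mm10 chromosome 2 at 105668900 to 105697364 on the plus strand. Lhx2 (ENSMUSG00000000247) lies on the same chromosome at 38339281 to 38369733, plus strand. Nr2e1 (ENSMUSG00000019803) lies on chromosome 10 at 42561963 to 42583632, minus strand. The promoter windows of Nr2e1, Pax6 and Lhx2 are printed because Polycomb repressive complex 2 is known to act at CpG-rich promoters of developmental genes. Each holds 300 bases around a RefSeq transcription start (GRCm38.p6, 5′ to 3′ on the gene's strand), with CpG dinucleotides in capitals:
Nr2e1, chr10:42583541-42583840: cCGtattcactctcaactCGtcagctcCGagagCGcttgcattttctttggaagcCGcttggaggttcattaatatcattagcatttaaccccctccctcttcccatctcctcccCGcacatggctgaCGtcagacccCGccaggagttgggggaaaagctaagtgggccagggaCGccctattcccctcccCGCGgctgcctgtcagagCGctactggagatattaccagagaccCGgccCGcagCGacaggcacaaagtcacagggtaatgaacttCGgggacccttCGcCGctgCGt
Pax6, chr2:105668646-105668945: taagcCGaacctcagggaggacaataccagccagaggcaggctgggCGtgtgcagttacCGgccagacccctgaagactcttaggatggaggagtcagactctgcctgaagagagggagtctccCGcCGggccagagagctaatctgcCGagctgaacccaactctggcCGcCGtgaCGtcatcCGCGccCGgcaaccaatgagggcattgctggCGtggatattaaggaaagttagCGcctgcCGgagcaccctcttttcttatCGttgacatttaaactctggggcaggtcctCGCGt
Lhx2, chr2:38339031-38339330: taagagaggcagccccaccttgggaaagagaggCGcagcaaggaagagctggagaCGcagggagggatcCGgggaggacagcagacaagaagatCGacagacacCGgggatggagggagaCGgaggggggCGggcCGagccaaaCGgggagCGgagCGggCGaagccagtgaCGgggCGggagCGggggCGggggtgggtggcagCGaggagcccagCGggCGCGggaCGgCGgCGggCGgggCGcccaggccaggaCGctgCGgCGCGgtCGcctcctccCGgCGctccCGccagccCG

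These windows held 19 CpG for Nr2e1, 18 for Pax6 and 34 for Lhx2, where the median over 32851 promoters was 7. As many CpG as in the Nr2e1 window were found in 28.1% of promoters, as many as in the Pax6 window in 29.7%, and as many as in the Lhx2 window in 7.73%. A further RefSeq start held 16 CpG for Pax6 and 29 for Lhx2. The homeodomain core TAATTA, its own reverse complement, was in none of these 5 windows and in 5.29% of all promoters. AAGTCA, the core that Nr2e1 binds, was searched on both strands. It was found once, at base 258 of the Nr2e1 window, and 15.1% of all promoters hold it.

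Nr2e1 was the least abundant of the 4 and the only one called. It stood at 42.5, 37.0, 44.1 and 46.2 CPM in replicates 1 to 4 labelled Ezh2fl/null, and at 57.7, 58.6, 55.7 and 53.4 CPM in Ezh2fl/+ replicates 1 to 4. Each library labelled Ezh2fl/null lay below each Ezh2fl/+ library, and replicate 2, a female library with lens RNA, was the lowest. Group means were 42.4 ± 3.95 CPM in libraries labelled Ezh2fl/null and 56.3 ± 2.30 CPM in Ezh2fl/+ (SD, n = 4 each). That is a log2 fold change of -0.41 with SE 0.07 and a 95% interval of -0.55 to -0.26 (adjusted p = 0.000953, edgeR quasi-likelihood test with Benjamini-Hochberg adjustment). Permuting the labels over all 70 assignments (exact, two-sided) returned the smallest p that this design allows, 0.0286. With the male libraries alone the log2 fold change was -0.35 (edgeR adjusted p = 0.00807), and without the libraries with lens RNA it was -0.34 (edgeR adjusted p = 0.00494). In the authors' deposited table the log2 ratio of Nr2e1 is -0.41.

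**Figure D1:**
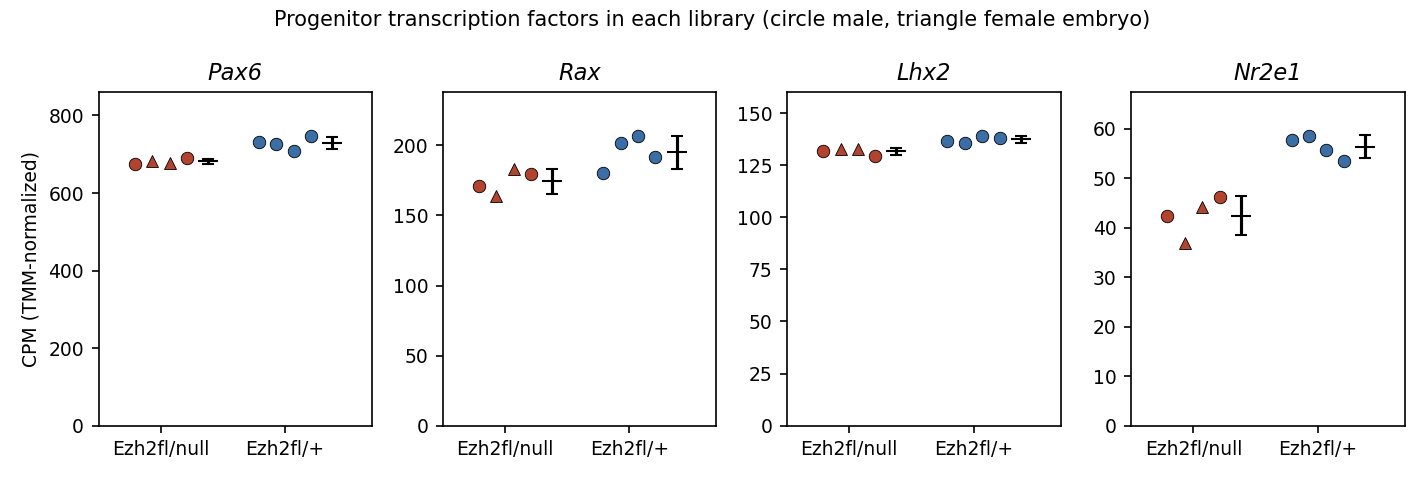
CPM of Pax6, Rax, Lhx2 and Nr2e1 in each library, labelled Ezh2fl/null left and Ezh2fl/+ right; circles are male and triangles female embryos, and the bar gives the mean and SD of 4 libraries. Nr2e1 lies at 37.0 to 46.2 CPM in libraries labelled Ezh2fl/null, below 53.4 to 58.6 CPM in Ezh2fl/+, whereas the shifts of the other genes are small beside their level.

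Rax (ENSMUSG00000024518; mm10 chromosome 18, 65928277 to 65939787, minus strand) came close to the threshold. It had 171, 164, 183 and 180 CPM in replicates 1 to 4 labelled Ezh2fl/null and 181, 202, 207 and 191 CPM in Ezh2fl/+ replicates 1 to 4. The groups overlapped, because Ezh2fl/+ replicate 1 lay below replicate 3 labelled Ezh2fl/null. Rax averaged 174 ± 8.72 CPM in libraries labelled Ezh2fl/null and 195 ± 11.8 CPM in Ezh2fl/+ (SD, n = 4 each), with a log2 fold change of -0.16 (SE 0.05, 95% limits -0.27 to -0.05; edgeR adjusted p = 0.0543; exact permutation p = 0.0571). Without Ezh2fl/+ replicate 1, a library with lens RNA, Rax passed at a log2 of -0.20 (edgeR adjusted p = 0.0252). It also passed with DESeq2 at -0.17 (adjusted p = 0.0316) and with size factors of DESeq2 in the edgeR fit (adjusted p = 0.046). Without the libraries with lens RNA, Rax did not pass (log2 -0.17, edgeR adjusted p = 0.057). Nor did it pass with the male libraries alone (log2 -0.16, edgeR adjusted p = 0.1815). The 20 alternatives spanned adjusted p of 0.0252 to 0.321. In the authors' deposited table the log2 ratio of Rax is -0.17, with an adjusted p of 0.0313 if its score is 10 times a negative log10.

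Photoreceptors and Müller glia also express Rax. The 5 photoreceptor markers tested summed to 431 to 456 CPM in libraries labelled Ezh2fl/null and 392 to 404 CPM in Ezh2fl/+, with 4 of 5 called higher. The 7 Müller glia markers, several of them shared with progenitors, summed to 996 to 1058 CPM in libraries labelled Ezh2fl/null and 1000 to 1018 CPM in Ezh2fl/+, with 5 called higher and 1 lower. Nr2e3, a photoreceptor marker called higher, had only 18 counts over the Ezh2fl/+ libraries. Of all genes tested, 8.35% were called higher and 3.46% lower. The part of photoreceptors and Müller glia in the Rax level was not tested.

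The Rax locus carries an antisense gene, Raxos1, whose exons share 818 of the 1672 bases of the principal Rax transcript (GENCODE M21). Raxos1 was at 106 ± 6.76 CPM in libraries labelled Ezh2fl/null and 120 ± 6.08 CPM in Ezh2fl/+ (SD, n = 4 each). It passed the test at a log2 of -0.18 (edgeR adjusted p = 0.0413), which 11 of 20 alternatives lost, male libraries alone and those without lens RNA among them. The sources used here do not say whether counting was strand-aware, so reads of Rax and Raxos1 cannot be told apart. Pax6 also has an antisense gene, Pax6os1, at 8.16 ± 0.291 CPM in libraries labelled Ezh2fl/null and 9.80 ± 0.712 CPM in Ezh2fl/+ (SD, n = 4 each; log2 -0.26, edgeR adjusted p = 0.0755), and its exons share no base with those of Pax6.

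Pax6 varied little. It stood at 676, 683, 677 and 690 CPM in replicates 1 to 4 labelled Ezh2fl/null and at 733, 726, 709 and 748 CPM in Ezh2fl/+ replicates 1 to 4. The groups did not overlap, yet the gap between the highest library labelled Ezh2fl/null and the lowest Ezh2fl/+ library was small. Pax6 averaged 681 ± 6.55 CPM in libraries labelled Ezh2fl/null and 729 ± 16.3 CPM in Ezh2fl/+ (SD, n = 4 each). The fold of 0.935 had 95% limits of 0.871 to 1.00 (edgeR adjusted p = 0.236; exact permutation p = 0.0286, not adjusted for the number of genes). In the authors' deposited table the log2 ratio of Pax6 is -0.10.

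Other cell types also express Pax6. The summed level of 9 amacrine markers was 340.4 to 386 CPM in libraries labelled Ezh2fl/null and 276 to 287.5 CPM in Ezh2fl/+, with 4 of 9 called higher and 0 lower. That of 9 ganglion cell markers was 1906 to 1980 CPM in libraries labelled Ezh2fl/null and 1999 to 2348 CPM in Ezh2fl/+, with 0 of 9 called higher and 4 lower. The 5 horizontal cell markers summed to 184 to 219 CPM in libraries labelled Ezh2fl/null and 203 to 231 CPM in Ezh2fl/+, with 2 called higher and 1 lower. Of all genes tested, 8.35% were called higher and 3.46% lower. The part of these cell types in the Pax6 level was not tested.

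Lhx2 also varied little. It stood at 132, 133, 133 and 129 CPM in replicates 1 to 4 labelled Ezh2fl/null and at 137, 136, 139 and 138 CPM in Ezh2fl/+ replicates 1 to 4. The groups did not overlap but lay close together, at 132 ± 1.59 CPM on average in libraries labelled Ezh2fl/null and 137 ± 1.61 CPM in Ezh2fl/+ (SD, n = 4 each). The fold of 0.957 had 95% limits of 0.906 to 1.01 (edgeR adjusted p = 0.346; exact permutation p = 0.0286, not adjusted for the number of genes). In the authors' deposited table the log2 ratio of Lhx2 is -0.07.

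Read together, 0 of the 4 genes were called higher, 1 was called lower and 3 were not called, with a median log2 fold change of -0.13, beside a median of -0.0074 over the 15014 genes tested. Among all genes tested 3.46% were called lower and 8.35% higher, 11.8% in either direction. DESeq2 called Rax and Nr2e1 lower of the 4, with 3.47% of all genes lower, and limma on log2(FPKM + 1) called Nr2e1, with 1.53% of genes lower. If the score in the authors' deposited table is 10 times a negative log10 adjusted p, Rax and Nr2e1 were lower, as were 3.48% of genes. The groups did not overlap in CPM for 3 of the 4, all with libraries labelled Ezh2fl/null lower, where 6.21% of all genes tested did so in that direction and 16.3% in either. In the deposited FPKM (fragments scaled by gene length), which are set relative to library total alone, the groups did not overlap only for Nr2e1. FPKM of Nr2e1 was 9.68 to 12.8 in libraries labelled Ezh2fl/null and 14.3 to 16.2 in Ezh2fl/+.

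The spread within groups differed between the genes. In libraries labelled Ezh2fl/null the coefficient of variation of CPM was 0.961% for Pax6, 1.21% for Lhx2, 5.0% for Rax and 9.32% for Nr2e1. In Ezh2fl/+ libraries it was 2.24% for Pax6, 1.18% for Lhx2, 6.02% for Rax and 4.09% for Nr2e1. Counting error alone gives 0.863% to 1.01% for Pax6, 2.01% to 2.34% for Lhx2, 1.71% to 2.06% for Rax and 3.23% to 4.34% for Nr2e1. The spread of Rax was above these values in both groups, that of Nr2e1 in the libraries labelled Ezh2fl/null, and that of Pax6 in the Ezh2fl/+ libraries. The spread of Lhx2 lay below its counting error in both groups, so its small SDs understate the error of a library.

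Ratios within a library do not depend on how libraries are scaled. The FPKM ratio of Nr2e1 to Pax6 was 0.216, 0.186, 0.224 and 0.230 in replicates 1 to 4 labelled Ezh2fl/null and 0.270, 0.277, 0.270 and 0.245 in Ezh2fl/+ replicates 1 to 4. The ratio of Nr2e1 to Lhx2 averaged 0.382 ± 0.0387 in libraries labelled Ezh2fl/null and 0.486 ± 0.0246 in Ezh2fl/+ (SD, n = 4 each), and that of Nr2e1 to Rax 0.109 ± 0.00602 in libraries labelled Ezh2fl/null and 0.130 ± 0.00979 in Ezh2fl/+. In all 3 ratios each library labelled Ezh2fl/null lay below each Ezh2fl/+ library. The log2 differences were -0.32 (SE 0.08) against Pax6, -0.35 (SE 0.08) against Lhx2 and -0.25 (SE 0.07) against Rax. Each gave p = 0.0286 in the exact two-sided permutation test, the smallest possible, and 0.0571 after Benjamini-Hochberg adjustment over the 6 pairs. The ratios among Pax6, Rax and Lhx2 overlapped between the groups, with log2 differences of -0.07 (SE 0.07) for Rax to Pax6, -0.10 (SE 0.06) for Rax to Lhx2 and -0.03 (SE 0.02) for Pax6 to Lhx2 (exact permutation adjusted p = 0.343, 0.214 and 0.309). No ratio passed after adjustment. With only 3 of the 6 ratios at the smallest possible p, the adjusted values cannot fall under 0.05, so they do not decide on a difference.

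**Figure D2:**
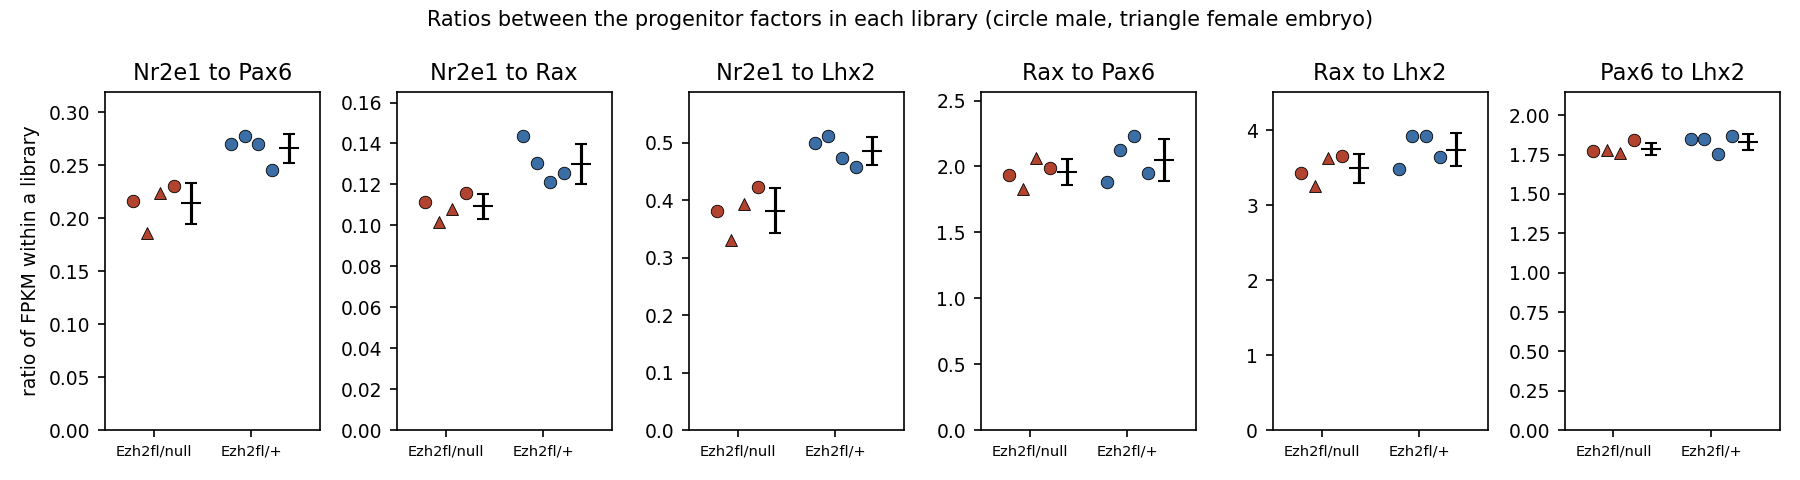
Ratio of deposited FPKM between pairs of the 4 genes within each library, labelled Ezh2fl/null left and Ezh2fl/+ right; circles are male and triangles female embryos, and the bar gives the mean and SD of 4 libraries. The 3 ratios with Nr2e1 on top are lower in each library labelled Ezh2fl/null, as in 0.186 to 0.230 for Nr2e1 to Pax6, against 0.245 to 0.277 in Ezh2fl/+, and the other 3 overlap.

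The order of the 4 by level per length depends on the gene model. In deposited FPKM, Rax came first with 105 ± 7.52 in libraries labelled Ezh2fl/null and 116 ± 8.90 in Ezh2fl/+ (SD, n = 4 each), rank 288 of 16096 genes by mean FPKM. Pax6 followed with 53.9 ± 1.51 FPKM in libraries labelled Ezh2fl/null and 56.7 ± 3.46 FPKM in Ezh2fl/+ (rank 779). Lhx2 had 30.2 ± 0.587 FPKM in libraries labelled Ezh2fl/null and 31.0 ± 1.32 FPKM in Ezh2fl/+ (rank 1782), and Nr2e1 had 11.5 ± 1.34 FPKM in libraries labelled Ezh2fl/null and 15.0 ± 0.792 FPKM in Ezh2fl/+ (rank 4578). No library of a gene overlapped the range of its neighbour in this order. The lengths implied by the authors' FPKM were 12750 bases for Pax6, 1670 for Rax, 4396 for Lhx2 and 3713 for Nr2e1. Per kilobase of the longest principal transcript in GENCODE M21, a scale chosen after the data were seen, Pax6 was first at 235.5 to 261 CPM per kilobase over the 8 libraries, and Rax was second at 97.9 to 124. Lhx2, at 45.5 to 49.0, and Nr2e1, at 11.3 to 17.8 CPM per kilobase, kept their places.

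The 4 genes were set among 28 other transcription factors of retinal progenitors. Of the 28, all tested, 4 were higher, 11 lower and 13 not called, with a median log2 fold change of -0.14. Over all genes tested 8.35% were higher and 3.46% lower. The count of lower factors was 8 with the male libraries alone and 8 without the libraries with lens RNA. Atoh7, the factor that makes progenitors competent to form ganglion cells, fell to 47.6 ± 8.35 CPM in libraries labelled Ezh2fl/null, against 82.8 ± 9.09 CPM in Ezh2fl/+ (SD, n = 4 each; log2 -0.80). Meis1, a homeobox factor upstream of Pax6 in the eye, was at log2 -0.27, and the Notch effector Hes5 at -0.41, both called.

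**Figure D3:**
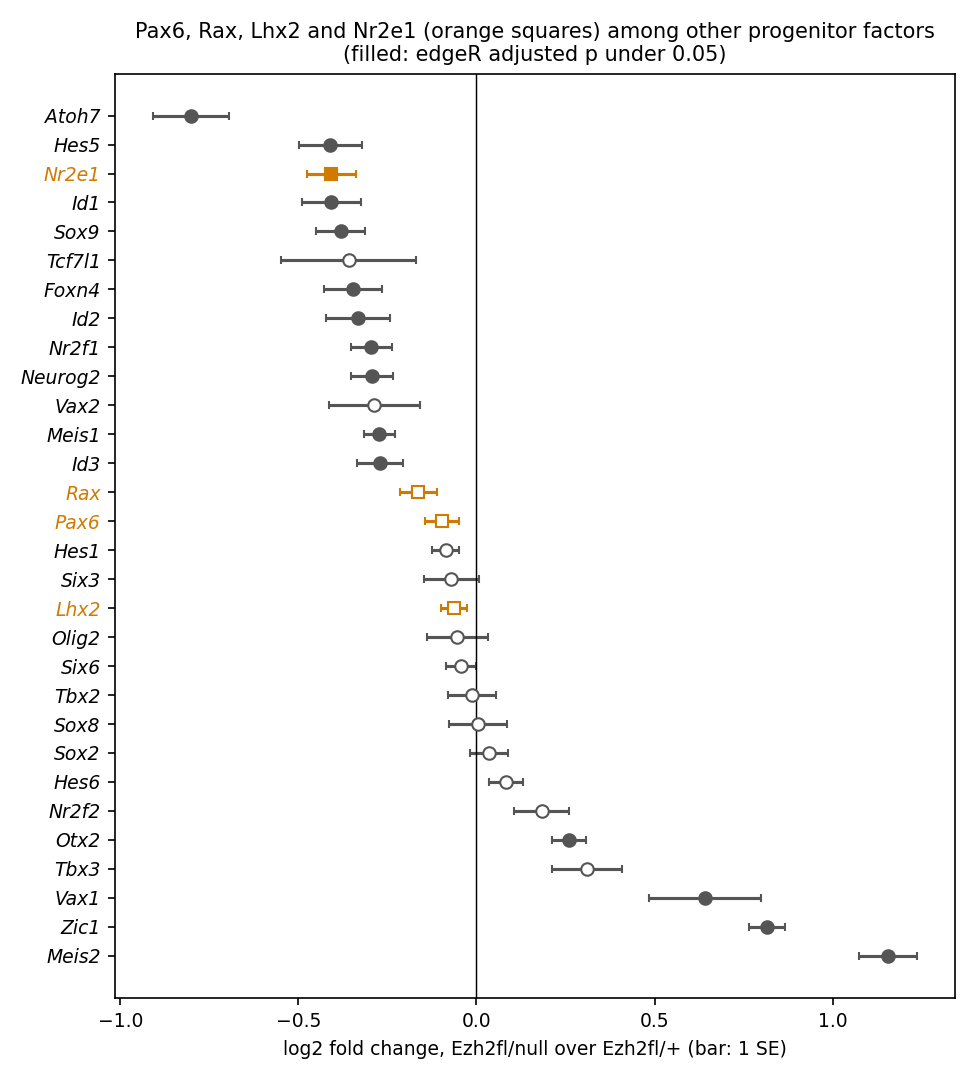
Log2 fold change of CPM, labelled Ezh2fl/null over Ezh2fl/+, with 1 SE, for the 4 genes (orange squares) and the other progenitor factors reported here (grey circles); filled symbols passed the edgeR test. Nr2e1 at -0.41 lies beside Hes5 and Id1, Rax at -0.16 and Pax6 at -0.10 lie in the middle, and Lhx2 at -0.06 lies near Six3 and Six6.

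The summed level of 7 ciliary margin markers was 60.8 to 84.2 CPM in libraries labelled Ezh2fl/null and 28.0 to 35.9 CPM in Ezh2fl/+, with 4 of 5 tested called higher, and its part in the changes of these factors was not tested. Sox9, Id1 and Nr2f1 were also called lower, at log2 -0.38, -0.41 and -0.29. Neurog2, a proneural factor, was called lower at log2 -0.29. It missed the threshold in 3 of 20 alternatives at a like size, log2 -0.25 with sex in the fit (edgeR adjusted p = 0.0501) and -0.27 in both limma fits (adjusted p = 0.0584 and 0.0585). Higher among the 28 were Meis2, a homeobox factor at 181 ± 24.9 CPM in libraries labelled Ezh2fl/null and 81.5 ± 4.28 CPM in Ezh2fl/+ (SD, n = 4 each; log2 1.16), Zic1, a zinc finger factor (log2 0.82), and Otx2, which specifies photoreceptors (log2 0.26). The eye field factors Six3 and Six6, which act beside Rax and Lhx2 in early eye formation, were at log2 -0.07 and -0.04 and were not called, nor was Sox2 at 0.03. Of 12 progenitor and proliferation genes that are not factors, 0 were higher, 4 lower and 8 not called, with a median of -0.16. For this list and the ciliary margin markers, the shares over all genes tested are again 8.35% higher and 3.46% lower. The lower count of the progenitor and proliferation genes was 2 without Ezh2fl/+ replicate 4, with library size alone and with sex in the fit. It was 1 in both limma fits. Ccnd1, the cyclin of dividing progenitors, fell to 3217 ± 183 CPM in libraries labelled Ezh2fl/null, against 4102 ± 131 CPM in Ezh2fl/+ (SD, n = 4 each; log2 -0.35, edgeR adjusted p = 0.00189), a call that all 20 alternatives held. Mki67, a marker of dividing cells, was at 1246 ± 98.3 CPM in libraries labelled Ezh2fl/null and 1277 ± 52.5 CPM in Ezh2fl/+ (SD, n = 4 each; log2 -0.04, edgeR adjusted p = 0.807).

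The families of the 4 genes held relatives that rose. Several relatives had few counts in Ezh2fl/+ and passed the filter through their counts in libraries labelled Ezh2fl/null, so the filter partly sets the shares given next. Of the 7 other LIM homeobox genes tested, 6 were higher and 1 lower, where 8.35% and 3.46% of all genes tested were. Their median was 0.98, and 4 more had no row in the deposited table under their symbols. With limma on log2(FPKM + 1), where the added 1 shrinks the change of low genes, 6 were higher and 0 lower, with a median of 0.39. Lhx9, the closest relative of Lhx2, was at 34.2, 38.1, 28.2 and 27.7 CPM in replicates 1 to 4 labelled Ezh2fl/null and at 12.5, 10.2, 12.5 and 13.0 CPM in Ezh2fl/+ replicates 1 to 4. These groups lay far apart, and the log2 fold change was 1.41 (SE 0.11, edgeR adjusted p = 6.82e-07). Lhx3, a factor of bipolar and motor neurons, rose by log2 1.84, Lhx5 by 1.59, Lhx1, a horizontal cell factor, by 0.98, Isl2 by 0.55 and Lhx4 by 0.39. Isl1, a ganglion and amacrine cell factor, was the lower one at log2 -0.17, which 13 of 20 alternatives lost.

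Of the paired-like homeobox genes related to Rax, 13 were tested, of which 10 were higher, 1 lower and 2 not called (median 1.83). The shares over all genes tested were 8.35% higher and 3.46% lower. With only genes of at least 1 CPM on average, 8 were tested, of which 5 were higher and 1 lower, with a median of 0.32, and the median was also 0.32 with limma on log2(FPKM + 1). Alx1, a factor of the facial skeleton, had 325 counts over the libraries labelled Ezh2fl/null and 5 over Ezh2fl/+. Crx, a photoreceptor factor, was at 219 ± 5.65 CPM in libraries labelled Ezh2fl/null and 178 ± 3.37 CPM in Ezh2fl/+ (SD, n = 4 each; log2 0.30). Dmbx1, Alx4, Prrx1 and Shox2 were also called higher, at log2 3.61, 2.37, 1.93 and 1.75, from 5, 19, 86 and 90 counts over the Ezh2fl/+ libraries. The summed level of 7 mesenchyme markers was 25.3 to 64.9 CPM in libraries labelled Ezh2fl/null and 20.6 to 44.1 CPM in Ezh2fl/+, with 4 of 7 called higher. The mesenchyme and paired-like lists share 1 gene. Twist1, Foxc1 and Pdgfra were among the mesenchyme markers called higher, at log2 3.83, 2.64 and 1.0. Twist1 and Foxc1 had 6 and 20 counts over the Ezh2fl/+ libraries. The collagen genes Col1a1 and Col1a2, abundant in mesenchyme, were at log2 0.17 (SE 0.47) and 0.21 (SE 0.32) and not called. The part of mesenchyme in these changes was not tested.

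Of the other Pax genes, 6 of 8 had no row in the deposited table under their symbols. Pax5 was not tested, with 58 counts over libraries labelled Ezh2fl/null and 8 over Ezh2fl/+. Pax8, a kidney and thyroid factor, was the 1 tested and rose by log2 4.79, with 159 counts over libraries labelled Ezh2fl/null and 5 over Ezh2fl/+. Of the 6 other nuclear receptors of the NR2 group, 1 was higher, 2 were lower and 3 not called (median -0.06). Among all genes tested, 8.35% were higher and 3.46% lower. Nr2e3, the nearest relative of Nr2e1 and a repressor of cone genes in rods, was at 2.87 ± 1.24 CPM in libraries labelled Ezh2fl/null and 0.271 ± 0.277 CPM in Ezh2fl/+ (SD, n = 4 each; log2 3.26, SE 0.52). Nr2e3 had 186 counts over libraries labelled Ezh2fl/null and 18 over Ezh2fl/+, and the lowest log2 over its 20 alternatives was 0.76. The COUP factor Nr2f1 and its relative Nr2f6 were called lower at log2 -0.29 and -0.32.

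**Figure D4:**
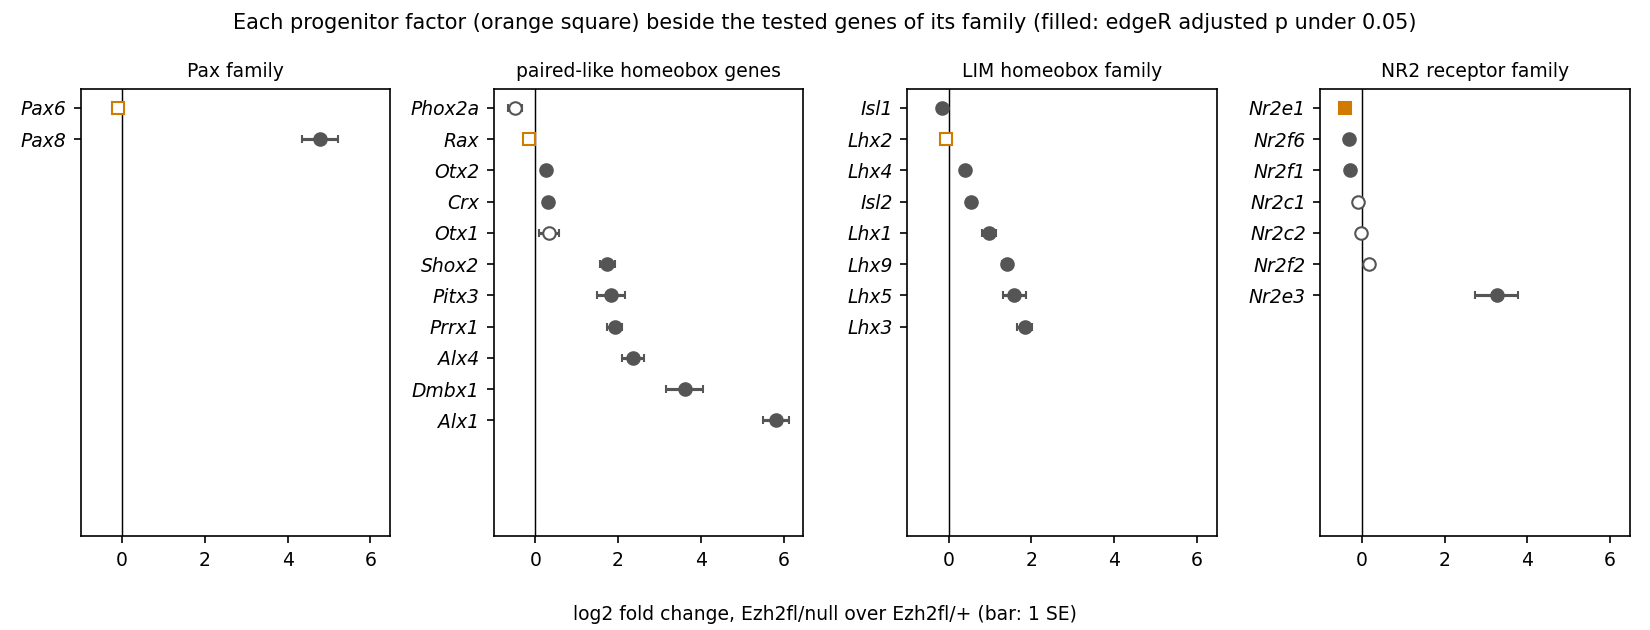
Log2 fold change of CPM, labelled Ezh2fl/null over Ezh2fl/+, with 1 SE, for each of the 4 genes (orange square) and the tested genes of its family reported here (grey circles); filled symbols passed the edgeR test. Pax6, Rax and Lhx2 lie near 0 while Pax8, Alx1 and Lhx3 lie at 4.79, 5.81 and 1.84, and Nr2e1 is at -0.41 while Nr2e3 is at 3.26. Over the Ezh2fl/+ libraries Pax8 and Alx1 had only 5 counts each and Nr2e3 had 18, so the size of their changes is uncertain.

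Genes of partner proteins were called about as often as genes in general, of which 11.8% were called in either direction. Of 10 LIM cofactors, which bind Lhx2 or compete for its partners, 1 was higher and 9 not called (median -0.02). Ldb1, the adaptor that LIM homeodomain factors need, was at 156 ± 19.7 CPM in libraries labelled Ezh2fl/null and 163 ± 5.11 CPM in Ezh2fl/+ (SD, n = 4 each; log2 -0.07, edgeR adjusted p = 0.627). The higher one was Lmo3, at log2 0.74, but not in male libraries only. Of 10 corepressors described for Nr2e1, 1 was lower and 9 not called (median -0.02). The lower one was Rcor2, a partner of the demethylase Kdm1a, at log2 -0.26, which 7 of 20 alternatives lost, male libraries alone among them. Kdm1a was at log2 0.05 and Atn1 at 0.04, both not called.

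Of 14 genes described as downstream of the 4 factors, 12 were tested, of which 3 were higher, 3 lower and 6 not called (median -0.12). The shares over all genes tested were 8.35% and 3.46%, higher and lower. Cdkn1a, a cell cycle inhibitor reported to be repressed by Nr2e1, was at 16.3 ± 2.12 CPM in libraries labelled Ezh2fl/null and 6.98 ± 0.679 CPM in Ezh2fl/+ (SD, n = 4 each; log2 1.21, called). Of the genes tied to Pax6, Atoh7 and Neurog2 were the lower ones given above. Of those tied to Lhx2, Hes5 fell and Six6, Hes1, Dll1 and Notch1 were not called, at log2 -0.04, -0.09, -0.16 and -0.18. Otx2, tied to Rax, was higher, as given above. Which factor acts on which gene was not tested.

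The genes whose centred log2 CPM lay nearest to that of each factor over the 8 libraries were sought among the 10193 genes that averaged 10 CPM or more. For Nr2e1 they were the growth factor gene Fgf9, the LIM protein gene Fhl1 and Slc3a2, a subunit of amino acid transporters, with root mean square differences of 0.0423, 0.0447 and 0.0451 on the log2 scale. Fgf9 stood at 48.8 ± 3.50 CPM in libraries labelled Ezh2fl/null and 64.2 ± 1.44 CPM in Ezh2fl/+ (SD, n = 4 each; log2 -0.39). For Rax they were Raxos1 (0.0306), whose reads cannot be told apart from those of Rax, Afg3l2 (0.0334) and Gm14820 (0.0336). For Pax6 they were Eef1a1, a translation elongation factor gene (0.0200), Kdelr2 (0.0209) and Tpm3 (0.0229), and for Lhx2 Wdr43 (0.0181), Stk4 (0.0185) and Gm21992 (0.0201). Pax6 and Lhx2 lay 0.0350 apart, whereas Nr2e1 lay 0.183 from Pax6 and 0.201 from Lhx2. These distances include the difference between the groups, so the nearest genes have a like fold change by how they were chosen. Shared regulation was not tested.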

How the data were processed

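RNA of 8 libraries, 4 labelled Ezh2fl/null and 4 labelled Ezh2fl/+, was measured by sequencing. Per the submitters' processing notes, Novoalign 2.08.01, DESeq2 and the mm10 build were used. No source used here names the counter, annotation, strand setting or gene filter. The authors deposited unnormalized whole-number counts per gene. The deposited FPKM are scaled by gene length and library total. The authors' log2 ratio compares the groups, and the authors' adjusted p is a score on an unnamed scale, whose slope on the negative log10 adjusted p of a DESeq2 fit was 11.1.

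Counts were tested with edgeR 4.0.16 (R 4.3.3): TMM, filterByExpr (minimum count 10), glmQLFit and glmQLFTest, Benjamini-Hochberg adjustment over the 15014 genes tested, called under 0.05, with no covariate. Genes not tested numbered 1082, and 99.9% of counts were in tested genes. Standard errors come from the F statistic. Single values were tested by exact permutation in scipy 1.17.1. Alternatives used DESeq2 1.42.0 and limma 3.58.1. Coordinates and transcripts came from GENCODE M21 by Ensembl identifier (15833 matched), and promoters from RefSeq, where 3 of the 4 genes matched. The fitting was tested on simulated data. Where 1 of several rows shared a symbol, that with most counts was used. Intervals of counting error leave out biological spread.

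The 4 genes and the lists were chosen with earlier results of these data known. Named genes were the 4 factors, up to 8 called genes of a list by smallest p, the 3 genes nearest in profile, overlapping and neighbouring genes, and Ezh2, Xist and Y-linked genes as checks; not all of them are described, and genes that were not called are named as examples chosen after their values were seen. A few genes stay in the counts and medians of their lists but are not reported here by name, in the text or the figures.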

Additional observations from a re-analysis of the deposited data

How the results depend on the processing

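The fold changes of Pax6, Lhx2 and Nr2e1 kept their direction and their side of the threshold in all 20 alternatives, with Nr2e1 at -0.45 to -0.34 on the log2 scale, Pax6 at -0.11 to -0.07 and Lhx2 at -0.07 to -0.04. Rax kept its direction, at -0.20 to -0.13, and passed the threshold with DESeq2 and with its size factors in edgeR (both -0.17) and without Ezh2fl/+ replicate 1 (-0.20). Leaving out 1 library at a time gave -0.20 to -0.13 for Rax, 1008 to 1233 genes higher, and 329 (without Ezh2fl/+ replicate 3) to 667 lower. The table as a whole had 1253 genes higher and 520 lower. The higher count was 800 with the male libraries alone and 795 with sex as a covariate. The lower count was 273 with library size alone, 220 and 229 with limma on log2(FPKM + 0.1) and log2(FPKM + 1), 255 with the male libraries alone, 246 with sex as a covariate and 323 without the libraries with lens RNA. Higher genes were 70.7% of calls, and 82.5% with library size alone. Of the other progenitor factors, 7 were lower in both limma fits and with sex as a covariate, against 11. The cause of these shifts was not tested.

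The 6 ratios kept their direction in 11 alternatives; with the male libraries alone the smallest possible p is 0.0667. With a replicate block Nr2e1 was at -0.41 (edgeR adjusted p = 0.00258), Rax at -0.16, Pax6 at -0.10 and Lhx2 at -0.06, with 1179 genes higher and 497 lower. Libraries with the same number deviated together at correlations of 0.214, -0.0309, -0.0427 and 0.258 over 10193 genes for numbers 1 to 4. Libraries with unlike numbers did so at -0.298 to 0.224. These values cannot decide whether a number stands for a shared litter or batch, and the labels do not say.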

Other observations

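Dennd1a, the tested gene on one side of Lhx2, fell more than Lhx2: it was at 51.6 ± 5.45 CPM in libraries labelled Ezh2fl/null and 72.3 ± 2.02 CPM in Ezh2fl/+ (SD, n = 4 each; log2 -0.48, SE 0.07, edgeR adjusted p = 0.000253). The genes next to Nr2e1, Snx3 and Ostm1, were at log2 -0.01 and 0.17 and were not called, and Elp4, next to Pax6, was at -0.02 and not called. Sec11c and Cplx4, on either side of Rax, were at log2 0.23 and 0.64 and were not called.

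The gene model behind the Rax FPKM is short. The implied 1670 bases lie close to the 1672 bases of the principal transcript, whereas the exons of Rax in GENCODE M21 cover 5846 bases. For Pax6 the implied 12750 bases stand beside 11694 in GENCODE M21 and 2869 in its longest principal transcript. The FPKM ratio of Rax to Pax6, 1.95 ± 0.0986 in libraries labelled Ezh2fl/null and 2.05 ± 0.159 in Ezh2fl/+ (SD, n = 4 each), therefore rests on those lengths, but its comparison between groups does not.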
